A study of Homo sapiens with 10 samples.

Results

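Aldehyde dehydrogenases (ALDHs) were compared between T24 cells, from a human bladder carcinoma, and T24R2 cells, which were derived from T24 by serial passage in cisplatin and resist the drug. The 9 genes described were taken by name from a list: ALDH1A1, ALDH1A3, ALDH1B1, ALDH2, ALDH3A1, ALDH3A2, ALDH3B1, ALDH7A1 and ALDH9A1. They are 9 of 61533 genes in the count tables and 9 of the 19 genes of the human ALDH superfamily. RNA-seq libraries were made from 5 replicates of each line on day 3 of culture, and total counts were 9257843 to 10247941 in T24 and 9591379 to 10840954 in T24R2. Both lines carry the same labels for medium (RPMI with serum), with no drug listed, whereas the methods of the study say that T24R2 was kept in cisplatin. It is unknown here whether the drug was present at harvest, so the effects of line and of drug cannot be told apart. T24R2 is a single derived line. The sources do not say that replicates were separate cultures, so p-values measure the spread between these libraries, which may be technical.

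ALDHs oxidise aldehydes to carboxylic acids with NAD+ or NADP+, and so clear reactive aldehydes from ethanol, lipid peroxidation, membrane lipids and amino acids. The ALDH1A enzymes make retinoic acid from retinaldehyde, and retinoic acid switches genes on through its nuclear receptors. ALDH activity is widely used as a marker of stem-like and drug-tolerant tumour cells, and ALDH1A1 and ALDH1A3 are the isoforms most often named for it. The other enzymes here have more specialised substrates, from acetaldehyde (ALDH2 and ALDH1B1) to long-chain fatty aldehydes (ALDH3A2).

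The set did not move in 1 direction. ALDH3A2 rose 8.33-fold in T24R2 and ALDH1B1 and ALDH3B1 rose by less, whereas ALDH2 was nearly lost and ALDH7A1 and ALDH1A3 fell. ALDH1A1 had no count in any library of either line. Of the 9 genes, 8 had a count, 7 had enough counts to be tested, and 6 of these were called (3 higher and 3 lower in T24R2). A gene was called at an adjusted p under 0.05 and an absolute log2 fold change (log2FC) over 0.5 in the quasi-likelihood test of edgeR after Benjamini-Hochberg adjustment. Calls were common in this comparison: by the same rule 51.4% of the 16181 tested genes were called, 24.9% higher and 26.5% lower. The median log2FC of the 7 tested genes was 0.26, beside 0.01 for all tested genes.

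Promoter sequences show how differently these genes are built around their starts. They are given for the member that rose most, the most abundant member and the member with no count. RefSeq entries (GRCh38.p14) cover 7 of the 9 members, each with 250 bases before and 50 bases after an annotated start, read 5′ to 3′ on the strand of the gene. Capitals mark 5 motifs searched on both strands, with N for any base. The antioxidant response element core, bound by NRF2, was searched as TGACNNNGC. The xenobiotic response element core, bound by AHR with ARNT, was searched as GCGTG. The E-box was searched as CACGTG, the GC box as GGGCGG, and the CCAAT box by its name. ALDH3A2 has 2 annotated starts, at chr17:19647886-19648185 and chr17:19648501-19648800 (plus strand). The window of ALDH1A3 is chr15:100879581-100879880 (plus strand), and that of ALDH1A1 is chr9:72953004-72953303 (minus strand).
ALDH3A2 start 1: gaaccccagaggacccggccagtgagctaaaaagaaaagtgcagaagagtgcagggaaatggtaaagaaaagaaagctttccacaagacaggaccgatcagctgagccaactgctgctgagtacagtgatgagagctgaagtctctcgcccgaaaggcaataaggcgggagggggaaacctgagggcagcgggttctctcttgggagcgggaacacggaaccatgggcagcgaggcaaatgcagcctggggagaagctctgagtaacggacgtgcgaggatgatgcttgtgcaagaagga
ALDH3A2 start 2: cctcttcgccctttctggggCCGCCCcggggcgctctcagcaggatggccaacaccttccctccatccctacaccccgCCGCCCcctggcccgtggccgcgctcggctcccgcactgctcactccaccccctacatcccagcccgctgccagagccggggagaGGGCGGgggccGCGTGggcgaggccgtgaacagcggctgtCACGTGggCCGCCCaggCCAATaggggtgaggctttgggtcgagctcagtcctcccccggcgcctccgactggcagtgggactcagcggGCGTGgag
ALDH1A3: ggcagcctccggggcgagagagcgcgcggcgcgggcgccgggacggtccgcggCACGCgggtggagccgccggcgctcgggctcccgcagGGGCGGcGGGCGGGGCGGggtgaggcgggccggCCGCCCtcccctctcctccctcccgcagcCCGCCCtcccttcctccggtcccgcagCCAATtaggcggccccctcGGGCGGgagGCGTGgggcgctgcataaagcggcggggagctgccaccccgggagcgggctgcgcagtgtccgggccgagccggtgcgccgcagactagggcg
ALDH1A1: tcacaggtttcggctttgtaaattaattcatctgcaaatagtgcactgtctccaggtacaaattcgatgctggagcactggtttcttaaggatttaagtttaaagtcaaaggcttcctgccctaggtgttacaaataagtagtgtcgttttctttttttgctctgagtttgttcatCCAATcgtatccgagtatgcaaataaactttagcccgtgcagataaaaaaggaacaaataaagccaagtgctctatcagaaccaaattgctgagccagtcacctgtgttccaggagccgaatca

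The ALDH1A3 window held 46 CG dinucleotides, more than 97.1% of 35116 promoter windows of the same length, whose median was 14. It held 6 GC boxes, 2 xenobiotic response element cores and 1 CCAAT box. The ALDH1A1 window held 7 CG dinucleotides, more than 36.8% of windows, and its only match was 1 CCAAT box. The 2 starts of ALDH3A2 differed: the first held 12 CG dinucleotides and no match, and the second held 27 CG dinucleotides, 4 GC boxes, 2 xenobiotic response element cores, 1 E-box and 1 CCAAT box. These letters are frequent, since 45.0% of all windows held a GC box, 36.5% a xenobiotic response element core, 34.6% a CCAAT box, 13.3% an antioxidant response element core and 7.26% an E-box. None of the 9 windows of members held the antioxidant response element core, which says only that these letters are absent from these windows. Some matches overlap, as in the run of GC boxes of ALDH1A3. The counts are summed over each gene and do not separate its starts.

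Expression values are given as library-scaled counts (CPM), scaled by the TMM method of edgeR, with the mean ± SD of 5 libraries per line. ALDH3A2, the fatty aldehyde dehydrogenase of the endoplasmic reticulum and peroxisomes, oxidises long-chain aliphatic aldehydes, and its loss causes Sjögren-Larsson syndrome. The gene lies at chr17:19648136-19685760 (hg38, plus strand). It measured 44.1, 43.4, 41.3, 47.1 and 44.7 CPM in T24 replicates 1 to 5 and 373, 352, 372, 365 and 376 CPM in T24R2 replicates 1 to 5. Every T24R2 library lay several-fold above every T24 library. The means were 44.1 ± 2.12 and 368 ± 9.69 CPM (SD, n = 5 each), a log2FC of 3.06 (SE 0.05, 95% interval 2.96 to 3.16, adjusted p = 2.6e-37, edgeR's quasi-likelihood test). Of all tested genes, 1.97% had a log2FC at or above this value. No gene on the other strand overlaps an exon of ALDH3A2.

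ALDH2, the mitochondrial enzyme that clears acetaldehyde made from ethanol, moved the other way (chr12:111766887-111817532, plus strand). It had 74, 72, 81, 100 and 63 counts in T24 replicates 1 to 5, and 4, 1, 1, 0 and 3 counts in T24R2 replicates 1 to 5. The T24R2 libraries were at or near the floor of detection, and no library of one line overlapped the other. In CPM the means were 8.41 ± 1.58 and 0.169 ± 0.155 (n = 5 each). The log2FC was -5.56 (SE 0.34, 95% interval -6.24 to -4.88, adjusted p = 4.67e-18, edgeR's quasi-likelihood test). From the pooled counts, 390 against 9, ALDH2 was 50.6-fold lower in T24R2 (95% exact interval 26.4 to 112, which covers counting error only). Of all tested genes, 1.52% had a log2FC at or below that of ALDH2. The level was already low in T24, so the fall concerns a gene at a few CPM.

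ALDH1B1 is the mitochondrial enzyme most similar to ALDH2 and also takes acetaldehyde. The gene (chr9:38392702-38398661, plus strand) measured 53.9, 49.9, 50.05, 47.8 and 50.1 CPM in T24 and 82.7, 76.2, 79.6, 87.1 and 82.3 CPM in T24R2. The 2 lines did not overlap, and T24R2 was higher. The means were 50.3 ± 2.21 and 81.6 ± 4.05 CPM, with a log2FC of 0.70 (SE 0.06, adjusted p = 6.05e-14, edgeR's quasi-likelihood test). The mitochondrial acetaldehyde enzymes therefore changed in opposite directions, from a T24 level at which ALDH1B1 was already the more abundant in TPM (a level per exon length, scaled to the same total in each library).

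ALDH1A3, which makes retinoic acid, was the most abundant member in both lines (chr15:100877714-100916626, plus strand). It measured 864, 749, 863, 1055 and 829 CPM in T24 and 586, 577, 550, 585 and 559 CPM in T24R2. All T24 libraries lay above all T24R2 libraries, and replicate 4 of T24 was the highest. The means were 872 ± 113 and 572 ± 16.2 CPM, and the log2FC was -0.61 (SE 0.05, 95% interval -0.72 to -0.50, adjusted p = 4.1e-13, edgeR's quasi-likelihood test). Without scaling beyond library size the log2FC was -0.45 and the call was lost. The gene shares 32.1% of its exon bases with ALDH1A3-AS1 on the opposite strand. Counting used a strand option although the library kit is not described as strand-specific, so reads of the 2 genes may not be told apart. ALDH1A3-AS1 had counts equal to 63.6% to 68.3% of those of ALDH1A3 in T24 and 64.0% to 71.4% in T24R2, and its own log2FC was -0.56 (SE 0.05, adjusted p = 4.45e-12, edgeR's quasi-likelihood test). With all its counts taken off those of ALDH1A3, the log2 ratio of mean CPM went from -0.61 to -0.72. Only 1715 of the 7758 exon bases of ALDH1A3-AS1 are shared with ALDH1A3. The counts taken off may thus include many from outside the overlap, and -0.72 is not a corrected value.

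ALDH1A1 (chr9:72900671-73080442, minus strand) had 0 counts in all 10 libraries. A count of 0 allows a level of up to 0.277 to 0.324 CPM, the value of 3 counts in these libraries by total count, without the TMM scaling of the other values. Of the 2 ALDH1A genes in the set, only ALDH1A3 had counts.

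ALDH3A1 oxidises medium-chain and aromatic aldehydes and is known from the cornea and from resistance to oxazaphosphorine drugs. The gene (chr17:19737984-19748943, minus strand) had 6, 10, 10, 11 and 2 counts in T24 and 0, 1, 0, 0 and 0 counts in T24R2. It was too low for the main test, and the libraries of the 2 lines did not overlap. The pooled counts, 39 against 1, give a ratio of 45.5 in favour of T24 (95% exact interval 7.71 to 1845, counting error only). With no count filter its log2FC was -4.80 (adjusted p = 7.97e-07, edgeR's quasi-likelihood test). The exact two-sided permutation test of CPM gave p = 0.00794, the smallest that 5 against 5 libraries allow (adjusted 0.00964 over 17 ALDH genes).

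ALDH3B1, a membrane-associated enzyme for aldehydes of lipid peroxidation, rose (chr11:68008578-68029282, plus strand). Its 5 T24 libraries ranged from 12.3 to 15.1 CPM and its 5 T24R2 libraries from 20.3 to 24.8 CPM, without overlap. The means were 13.3 ± 1.33 and 23.2 ± 1.72 CPM, with a log2FC of 0.80 (SE 0.10, adjusted p = 2.47e-09, edgeR's quasi-likelihood test). ALDH7A1, or antiquitin, works in lysine breakdown, and its deficiency causes pyridoxine-dependent epilepsy (chr5:126531200-126595362, minus strand). It ranged from 72.9 to 77.4 CPM in T24 and from 37.3 to 46.3 CPM in T24R2, and no library overlapped. The means were 74.99 ± 2.12 and 41.2 ± 3.50 CPM, and the log2FC was -0.86 (SE 0.06, adjusted p = 1.02e-15, edgeR's quasi-likelihood test).

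ALDH9A1 acts in carnitine synthesis on trimethylaminobutyraldehyde (chr1:165662216-165698562, minus strand). It measured 54.2, 56.0, 51.1, 53.8 and 52.0 CPM in T24 and 66.2, 69.9, 58.4, 63.1 and 61.5 CPM in T24R2. The libraries did not overlap, but the shift was small. The log2FC of 0.26 (SE 0.06, 95% interval 0.13 to 0.38, adjusted p = 0.000235, edgeR's quasi-likelihood test) was under the fold change minimum, so ALDH9A1 was not called. Without that minimum, 75.5% of all tested genes would be called. All 7 tested members had lines that did not overlap in CPM, as did 61.2% of all tested genes. ALDH3A1, which was not tested, did not overlap either, which makes 8 of the 9 members.

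**Figure D1:**
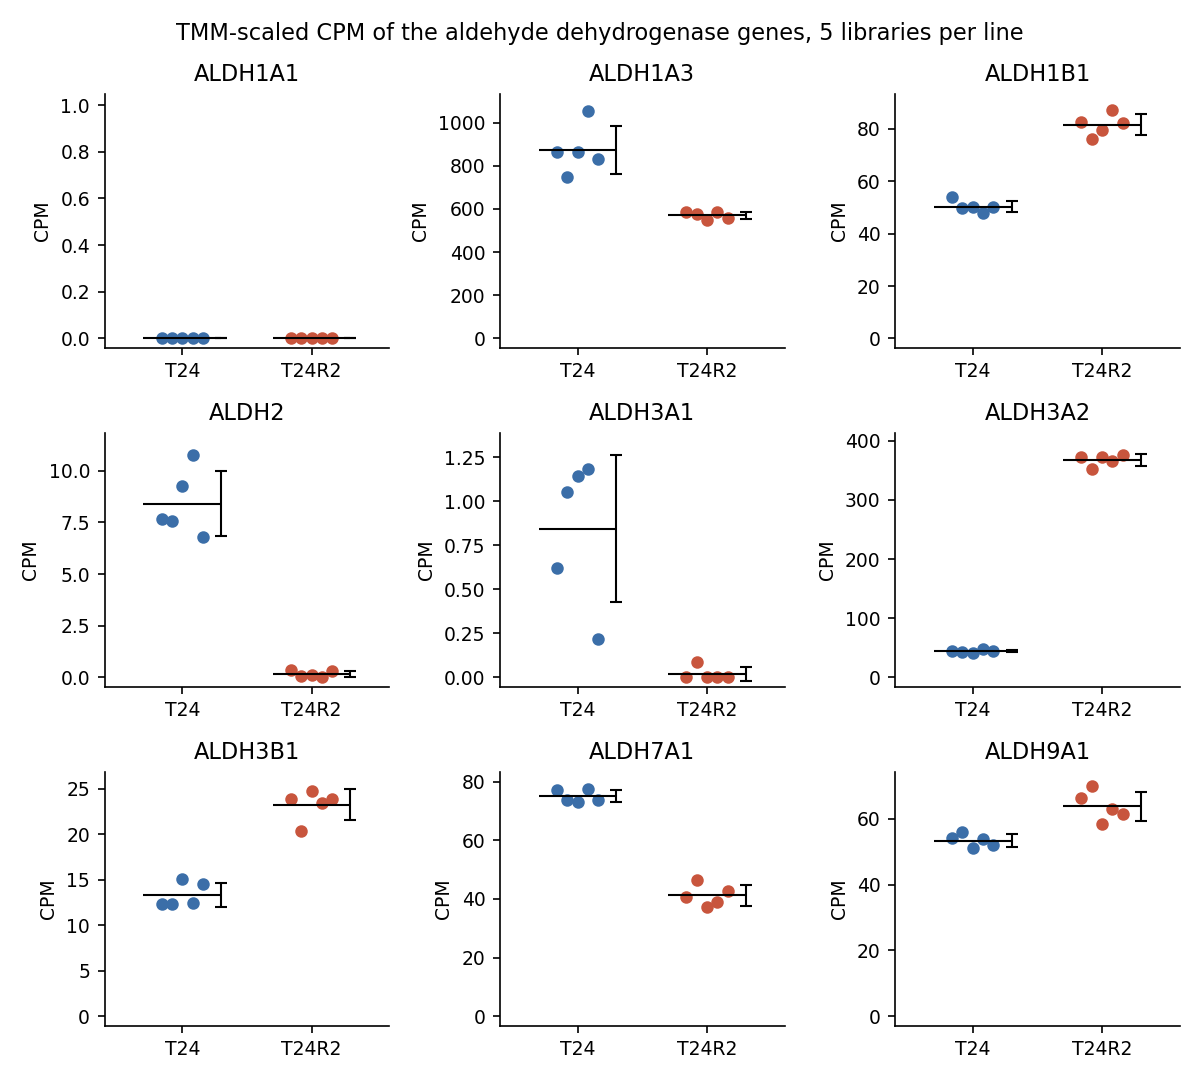
TMM-scaled CPM (y axis, linear, a separate scale in each panel) of the 9 ALDH genes in the 5 T24 libraries (blue) and the 5 T24R2 libraries (red). Points are libraries, horizontal lines are means and bars are SDs. ALDH3A2, ALDH1B1, ALDH3B1 and ALDH9A1 are higher in every T24R2 library, ALDH1A3, ALDH2, ALDH3A1 and ALDH7A1 are higher in every T24 library, and ALDH1A1 is at 0 throughout.

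The other 10 superfamily genes give the setting for these changes. Of these, 5 were tested, and all 5 were called, 4 higher and 1 lower in T24R2, where 51.4% of all tested genes were called, 24.9% higher and 26.5% lower. ALDH5A1, which oxidises succinic semialdehyde from GABA, went from 6.61 ± 0.790 to 17.4 ± 2.12 CPM (log2FC 1.40, SE 0.13). GPLD1 on the other strand overlaps 3.16% of its exon bases, and with all counts of GPLD1 taken off the log2 ratio was 2.03. ALDH16A1 went from 13.95 ± 2.83 to 35.5 ± 3.76 CPM (log2FC 1.35, SE 0.10). PIH1D1 on the other strand overlaps 3.31% of the exon bases of ALDH16A1. PIH1D1 had more counts than ALDH16A1 itself (means of 503 and 749 counts per library in T24 and T24R2), so taking all of them off was not possible. ALDH6A1, of valine breakdown, went from 23.9 ± 2.48 to 41.3 ± 3.04 CPM (log2FC 0.79, SE 0.08). BBOF1 overlaps 10.03% of its exon bases from the other strand, and with all counts of BBOF1 taken off the log2 ratio was 0.67. All counts of the overlapping gene were taken off, not only those in shared bases, so these ratios are not corrected values.

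ALDH4A1 and ALDH18A1 stand at the 2 ends of proline metabolism, breakdown and synthesis respectively. ALDH4A1 rose from 22.6 ± 2.65 to 32.3 ± 2.76 CPM (log2FC 0.51, SE 0.09), just past the fold change minimum. It was at 0.50, 0.48 and 0.47 without T24 replicate 1, 3 or 5, and at 0.48 without T24R2 replicate 2, and was then not called. ALDH18A1 fell from 188 ± 9.54 to 46.5 ± 1.76 CPM (log2FC -2.01, SE 0.05, adjusted p = 1.97e-30, edgeR's quasi-likelihood test). The whole superfamily thus had 12 tested genes, 7 higher, 4 lower and 1 not called, with a median log2FC of 0.60, beside the same shares for all tested genes.

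**Figure D2:**
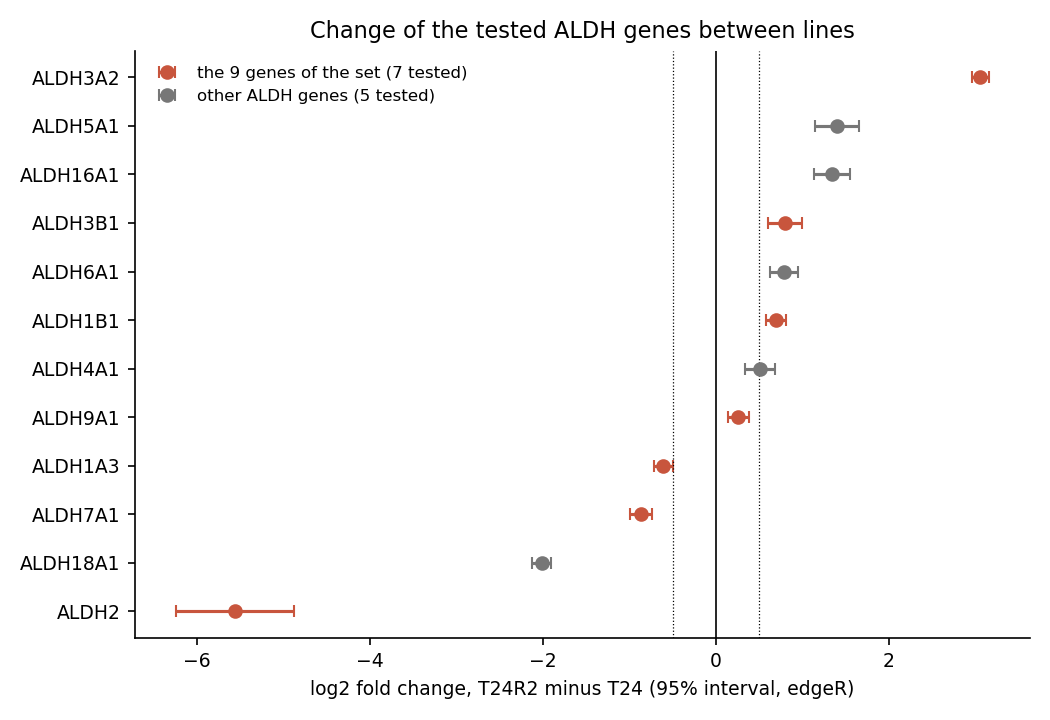
Log2 fold change (x axis, T24R2 minus T24) of the 12 tested ALDH genes, with 95% intervals from edgeR. Red points are the 7 tested genes of the set of 9, grey points the 5 other tested ALDH genes, and dotted lines the fold change minimum of 0.5. Values run from -5.56 for ALDH2 to 3.06 for ALDH3A2.

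The remaining 5 superfamily genes were too low to be tested. ALDH1L1, a cytosolic folate enzyme, had 10, 18, 15, 10 and 17 counts in T24 and 0 in every T24R2 library, which makes it at least 27.3-fold lower in T24R2 (against a floor of 3 counts over the line). ALDH1A2, another retinoic acid synthase, had 10 counts in all in T24 and 54 in T24R2 (exact two-sided permutation p = 0.0317, adjusted 0.0337). ALDH8A1 had 5 counts in T24 and 30 in T24R2 (exact two-sided permutation p = 0.0159, adjusted 0.0180), and ALDH1L2 had 26 and 38 (p = 0.571, exact two-sided permutation test). ALDH3B2 had no count. ALDH1A2 was at most 1.43 CPM in any library, beside at least 550 CPM for ALDH1A3.

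The level of each gene per exon length was compared as TPM, computed from the union of exons in the tables. In T24 the order was ALDH1A3 (502 ± 71.0 TPM), ALDH9A1 (54.5 ± 1.48), ALDH1B1 (49.6 ± 1.78), ALDH7A1 (12.9 ± 0.429), ALDH3A2 (8.84 ± 0.496), ALDH3B1 (6.19 ± 0.674), ALDH2 (2.66 ± 0.530) and ALDH3A1 (0.668 ± 0.332), and no neighbours overlapped in range. In T24R2 ALDH1A3 again led (384 ± 12.3 TPM). It was followed by ALDH1B1 (93.8 ± 4.75), ALDH3A2 (85.9 ± 1.96) and ALDH9A1 (76.0 ± 5.65), whose neighbouring ranges overlapped. ALDH3B1 (12.6 ± 0.849) and ALDH7A1 (8.25 ± 0.767) came next, and ALDH2 and ALDH3A1 were under 0.1 TPM on average. ALDH3B1 and ALDH7A1 thus changed places between the lines on this scale. They did not with canonical transcript lengths, an alternative added after seeing the data, by which they were at 29.6 ± 1.999 and 31.02 ± 2.88 TPM in T24R2, with overlapping ranges.

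The make-up of the set shifted more than its sum. Summed TPM of the 9 genes was 638 ± 72.1 in T24 (range 556 to 754) and 661 ± 18.1 in T24R2 (631 to 678), a ratio of 1.04, with overlapping ranges. The share of ALDH1A3 in that sum went from 78.6% ± 2.12 to 58.1% ± 0.434, and that of ALDH3A2 from 1.39% ± 0.108 to 13.0% ± 0.510. The sum and shares rest mostly on ALDH1A3, whose reads may not be told apart from those of ALDH1A3-AS1. The direction of the summed ratio depended on the scale: it was 0.994 as CPM per kilobase by library size and 0.888 with TMM scaling. The annotated exons of ALDH3A2 span 15331 bases against 3703 in its canonical transcript, so its TPM depends on the length used. With canonical lengths the summed ratio was 1.204, ALDH3A2 held 3.70% of the sum in T24 and 29.7% in T24R2, and it ranked second to ALDH1A3 in T24R2.

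**Figure D3:**
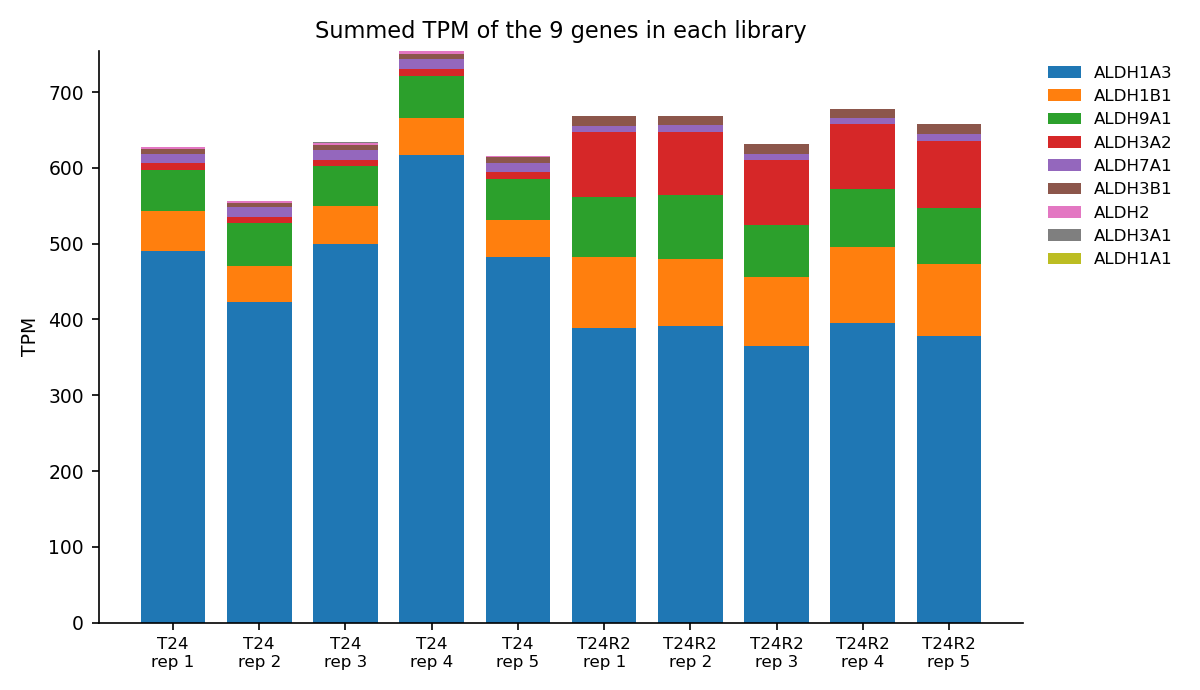
Summed TPM (y axis) of the 9 ALDH genes in each library, stacked by gene, with lengths from the union of exons. ALDH1A3 (blue) is the largest part of every bar, and ALDH3A2 (red) goes from 1.39% of the sum in T24 to 13.0% in T24R2.

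The nearest tested genes were counted by their calls. Among the 12 nearest tested genes on either side of the 6 called members, 3 were called in the member's direction, 4 in the other direction and 5 were not called. These shares are near those of all tested genes (51.4% called, 24.9% higher and 26.5% lower), so the count says nothing particular of the neighbours. One of the 3 is ALDH1A3-AS1, whose reads may not be told apart from those of ALDH1A3. ALDH3A2 and ALDH3A1 lie 52223 bases apart on chromosome 17, and the genes around them were looked at after the values were seen. Within 500000 bases of the pair, 10 genes were tested, ALDH3A2 included, of which 5 were higher, 4 lower and 1 not called (median log2FC 0.13), where 51.4% of all tested genes were called, 24.9% higher and 26.5% lower.

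The changes on either side of ALDH3A1 were the steepest of these. SLC47A2, which encodes a drug transporter of the MATE family and whose span runs into that of ALDH3A2 on the opposite strand with no shared exon base, had 3 counts over the T24 libraries and 328 over the T24R2 libraries, a ratio of 93.6 (95% exact interval 31.8 to 456, counting error only). ULK2, an autophagy kinase, had 101 to 133 counts in each T24 library and 0 in every T24R2 library, so it was at least 238-fold lower in T24R2 (floor of 3 counts over the line). Farther out, MAPK7 rose (log2FC 1.07) and SPECC1 fell (log2FC -1.90).

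**Figure D4:**
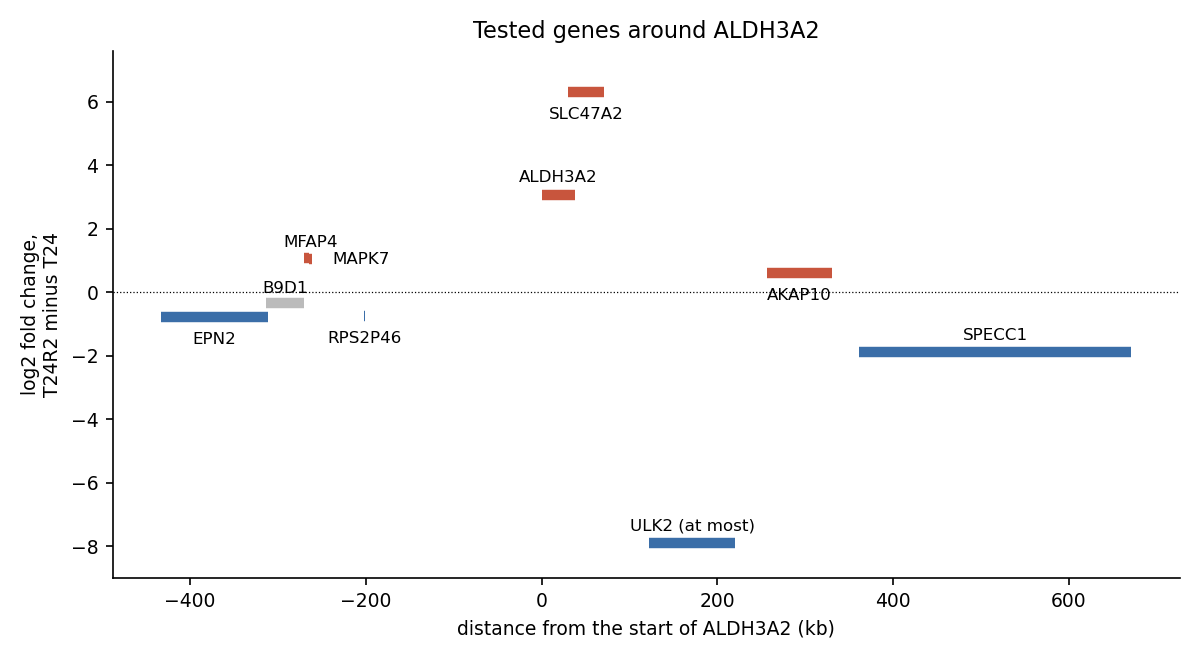
Log2 fold change (y axis, T24R2 minus T24) of the 10 tested genes near ALDH3A2, drawn along their span by distance from the start of ALDH3A2 (x axis, kb). Red marks called higher, blue called lower and grey not called. ULK2, with 0 counts in T24R2, is drawn at its bound, and SLC47A2, with 3 counts over the T24 libraries, at its fitted value. Genes called higher and lower are interspersed, with ALDH3A2 at 3.06.

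The routes that feed and use these enzymes were followed in 6 gene lists, each read against the 51.4% of all tested genes that were called. Retinaldehyde supply had 16 listed and 6 tested genes, of which 1 was higher and 1 lower (median log2FC 0.20). The list pools genes of different roles in the handling of retinol and retinaldehyde, so its median does not measure supply. RDH10, the main retinol dehydrogenase of embryonic retinoic acid synthesis, fell from 38.3 ± 6.98 to 12.2 ± 1.26 CPM (log2FC -1.65, SE 0.11, adjusted p = 3.05e-17, edgeR's quasi-likelihood test). RDH13 rose (log2FC 0.79, SE 0.28, adjusted p = 0.0118, same test), but from few counts (86 over the T24 and 174 over the T24R2 libraries), and the libraries of the lines overlapped.

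Of 14 genes for retinoic acid binding, receptors and clearance, 10 were tested, 5 were lower and 1 was higher (median -0.48). The receptor genes RARA (log2FC -1.15), RXRA (-0.77) and RARG (-0.58) fell, as did NRIP1 (-1.35), a corepressor of nuclear receptors. RARB, itself a textbook target of retinoic acid, was the 1 gene of the list called higher, from 2.65 ± 0.219 to 4.99 ± 0.732 CPM (log2FC 0.91). For RARA, 21.4% of exon bases are overlapped from the other strand. Of 14 retinoic acid response genes, 10 were tested, 7 were lower and 1 was higher (median -1.07). Of all tested genes, 26.5% were lower and 24.9% higher. Some of these genes also stand in the list before, so the 2 lists are not separate. RARB is the 1 higher gene of both, and NRIP1 is among the lower genes of both. TGM2, a transglutaminase induced by retinoic acid in many cells, fell from 1915 ± 60.8 to 640 ± 34.0 CPM (log2FC -1.58, SE 0.04). PLAAT4 (-1.31) and RAI14 (-0.56) also fell. RARG and RAI14 lay close to the fold change minimum. Without scaling beyond library size, the binding list had 4 lower and 2 higher genes, and the response list 6 lower and 2 higher.

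Of 15 genes for alcohol oxidation and carbonyl reduction, 9 were tested, 1 was higher and 3 were lower (median -0.15). AOX1, aldehyde oxidase, which oxidises aldehydes without NAD+, rose from 13.7 ± 2.68 to 111 ± 3.73 CPM (log2FC 3.02, SE 0.08, adjusted p = 2.91e-30, edgeR's quasi-likelihood test), a log2FC close to that of ALDH3A2. CAT, catalase, fell (log2FC -1.11), as did the reductases DHRS2 (-4.43) and CBR4 (-0.51). CBR4 was just past the fold change minimum. The list had 2 lower genes rather than 3 without scaling beyond library size. The same held without T24 replicate 1, 3 or 4, or without T24R2 replicate 1, 3 or 4. Of 19 genes of choline, carnitine, lysine and fatty aldehyde routes, 12 were tested, 4 were higher and 4 were lower (median 0.14).

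These last routes hold the sources of substrate for ALDH3A2 and ALDH9A1. FAR1 (-0.59) and FAR2 (-0.57), which reduce fatty acyl-CoA to fatty alcohol, fell in log2FC, and PHYH, of phytanic acid breakdown, rose (1.12). FAR1 and FAR2 lay close to the fold change minimum. Without scaling beyond library size, 2 genes of this list were lower rather than 4, and 4 were still higher. SGPL1, the sphingosine 1-phosphate lyase that releases a fatty aldehyde, was not called, with 45.4 ± 2.72 CPM in T24 and 56.1 ± 2.84 CPM in T24R2 (log2FC 0.30). SLC22A5, the carnitine transporter, fell (-1.08). Of 16 AHR and NRF2 target genes and regulators, 11 were tested, 6 were higher and 1 was lower (median 0.55). NQO1 (1.59), GCLM (1.96), GCLC (1.86) and NFE2L2 (1.502), which encodes NRF2, rose. They are the 4 called genes of the list with the smallest adjusted p, and 4 tested genes of the list were not called. The pooled list does not show the AHR and NRF2 genes apart. For NQO1, 19.4% of exon bases are overlapped from the other strand.

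**Figure D5:**
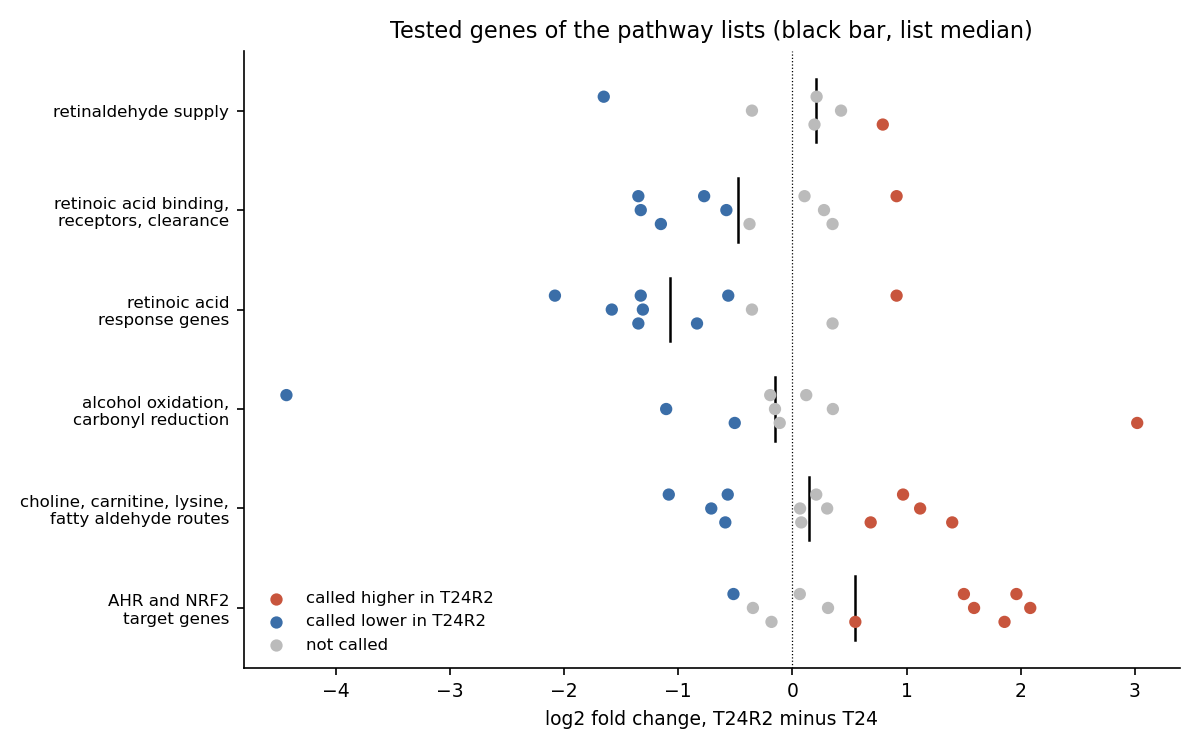
Log2 fold change (x axis, T24R2 minus T24) of the tested genes in 6 pathway lists. Each point is a gene, red called higher, blue called lower and grey not called, and black bars are list medians, from -1.07 for retinoic acid response genes to 0.55 for AHR and NRF2 target genes. Some genes stand in more than 1 list.

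Profiles over the 10 libraries were compared by Pearson's r of log2(CPM + 1), as a description in which the difference between lines dominates. The genes most like ALDH2 were ATG16L2 (r = 0.998), HOXB4 (0.998) and UGGT2 (0.997), and 2801 genes had r over 0.95. For ALDH1A3 they were UGT1A1 (r = 0.993), ALDH1A3-AS1 (0.989) and CCDC186 (0.989), and 336 genes had r over 0.95. UGT1A1 had a mean of only 18.4 counts per library in T24 and 0 in T24R2, unlike ALDH1A3, which stayed abundant in both lines. It also shares most of its exons with the other UGT1A genes, so its counts are uncertain.

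Cell identity markers also differed between the lines. Of 14 urothelial markers 7 were tested and all 7 were lower in T24R2, as were 26.5% of all tested genes. GATA3, a luminal urothelial transcription factor, went from 22.1 ± 2.004 to 0.214 ± 0.210 CPM, and the summed level of the list was 4747 to 5472 CPM in T24 and 3028 to 3233 CPM in T24R2. KRT20 had no count in either line. The epithelial keratins KRT7, KRT8 and KRT18 were abundant in both lines, though they are among the 7 lower genes. KRT8 had means of 14321 and 10944 counts per library in T24 and T24R2, and KRT18 had 10334 and 7491. These keratins make up a large part of the summed level. Of 10 markers of other cell types 3 were tested and 2 were lower in T24R2 (beside the same 26.5%), with a summed level of 231 to 283 CPM in T24 and 5.11 to 6.81 CPM in T24R2. Most of the T24 sum was CDH5, an endothelial cadherin, at 239 ± 22.3 CPM in T24 and 0.559 ± 0.310 CPM in T24R2. The part of these differences in the ALDH results was not tested.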

How the data were processed

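RNA-seq reads of the authors were mapped by STAR 2.7.0 (hg38), multi-mapped and duplicate reads were removed (SAMtools 1.10), and genes of GENCODE release 39 were counted by featureCounts 2.0.1 with strand option 1. The deposited values are raw counts per gene and library.

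From these counts, genes were filtered with filterByExpr (16181 kept), scaled by TMM (factors 0.936 to 0.951 in T24 and 1.04 to 1.07 in T24R2) and tested with glmQLFit and glmQLFTest in edgeR 4.0.16 (R 4.3.3). The study used DESeq2 with shrinkage, run here as an alternative (DESeq2 1.42.0), beside limma-voom (limma 3.58.1), other scalings, filters and thresholds, a replicate block and leaving out each library. Steps were tested on simulated data with few changed genes, as many higher as lower. That setting does not test the scaling under changes as wide as those between these lines. CPM and TPM (union exon length) were computed with Python 3.11.15. Symbols were matched for 61369 gene identifiers. The 20 replicate pairs differed by more than sampling noise (chi-square over its degrees of freedom 1.99 to 6.51). At 0 counts, a level equal to 3 counts remains possible, and floors cover counting error only.

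The members and lists were chosen with earlier results of these data known. Named genes are all ALDH genes, up to 4 called genes per list with the smallest adjusted p, genes overlapping ALDH genes and the 3 profiles most like ALDH2 and ALDH1A3. RARB, SGPL1, the marker genes named, and the genes around ALDH3A1 were named after their values were seen.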

Additional observations from a re-analysis of the deposited data

Results flagged for a closer look

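In 4 of 35 groups of 5 libraries examined for the ALDH genes, 1 library stood apart from the other 4 by Dixon's criterion (1.75 groups would be expected by chance at 1 in 20). ALDH3A1 was at 0.0867 CPM in T24R2 replicate 2, from a single count, and at 0 in the other T24R2 libraries. ALDH1A2 was at 0.914 CPM in T24 replicate 3, with the others at 0 to 0.108 CPM, and at 1.43 CPM in T24R2 replicate 4, with the others at 0.826 to 0.983 CPM. ALDH5A1 was at 21.0 CPM in T24R2 replicate 3, with the others at 15.4 to 17.01 CPM.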

How the results depend on the processing

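With each library left out in turn, 6 of the 9 ALDH genes were called each time, 4 to 6 of the other ALDH genes, and 8398 to 8466 of all genes. Without scaling beyond library size, 5206 genes were higher and 3431 lower, against 4027 and 4282 with TMM, and the median log2FC of all genes was 0.18. ALDH1A3 was then at -0.45 and not called. Higher and lower calls were then 2 and 1 for retinaldehyde supply, 2 and 4 for retinoic acid binding, and 2 and 6 for retinoic acid response. They were 2 and 2 for alcohol oxidation, 4 and 2 for choline to fatty aldehyde routes, and 6 and 0 for AHR and NRF2 genes. With an absolute log2FC over 1, 4211 of 16181 tested genes were called, with 2 of the 7 tested ALDH genes of the set and 3 of 5 other ALDH genes. Of the lists, retinaldehyde supply had 1 of 6 tested genes called and retinoic acid binding 3 of 10. Retinoic acid response had 5 of 10 and choline to fatty aldehyde routes 3 of 12. With a mean of at least 100 counts, fewer genes were tested, and 4991 of 10686 were called. Retinaldehyde supply then had 1 of 5 tested genes called, retinoic acid response 3 of 5 and alcohol oxidation 2 of 7. With no fold change minimum, 12212 of 16181 tested genes were called. Retinaldehyde supply then had 4 of 6 tested genes called, retinoic acid binding 10 of 10 and alcohol oxidation 8 of 9. With no count filter, 8 of 9 other ALDH genes and 6 of 15 retinaldehyde supply genes were called, beside 10919 of 33622 genes in all. The summed ratio was 0.888 with TMM-scaled CPM per kilobase, 1.204 with canonical lengths, and 1.00 to 1.09 without each library. Replicate numbers do not pair the libraries (correlation of deviations -0.02 to 0.02), and 8240 genes were called with the number as a block, against 8309, with the same 6 ALDH calls. These depths limit ALDH1A1, ALDH3A1 and the other genes at a few counts.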
